A study of Homo sapiens with 4 samples.

Results

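The feedback loop on BMP and TGF-beta signalling, in the form of 10 of its genes, was followed in the HT8 cell line, named in the labels as a line of colon cancer tissue. The genes are the decoy receptor BAMBI, the ID genes ID1, ID2, ID3 and ID4, the inhibitory SMAD genes SMAD6 and SMAD7, the ligand BMP4 and the receptors TGFBR2 and BMPR1A. These 10 genes were taken by name out of 58735 gene IDs, and all 10 were found. They were picked with the change of this same comparison in view, BAMBI's rise above all, so their changes are given as a description and not as a test. The 4 RNA-seq libraries were 2 with the genotype label PPDPF knockdown, prepared from cells named HT8-cas1, and 2 with the genotype label control, prepared from cells named HT8. The agent behind the knockdown, the number of clones and any separate cultures are not given in the labels, so the spread between the 2 libraries of a group may be technical. Genotype label and cell name go together in all 4 libraries. The knockdown and any other difference between the HT8-cas1 and HT8 cells therefore cannot be told apart.

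PPDPF itself had 281 and 283 FPKM in the libraries labelled knockdown, against 237 and 266 FPKM in control (log2 fold change 0.16, not called), so the targeted gene was not lower and the group is called here only by its label. PPDPF was called higher with genes of at least 5 FPKM only, with limma-voom (a fit on the recovered reads) under both library sizes tried, and without control replicate 2 (log2 fold change 0.25), while the change was 0.081 without control replicate 1. Each direction given here follows the labels and would turn round if the labels were exchanged. Reads in genes ranged from 17069628 to 19479906 per library. Of 8 epithelial markers, all were detected, among them the intestinal factor CDX2, with a summed level of 3133 to 3159 FPKM in the libraries labelled knockdown and 2621 to 2802 FPKM in control. KRT8, KRT19 and KRT18 were the most abundant, with averages of 1024, 777 and 685 FPKM over the 4 libraries. Of the 8, 4 were called higher and 1, CDH1, lower (16.8% and 13.0% of all tested genes). CDX2 averaged 40.5 FPKM in the libraries labelled knockdown and 45.8 FPKM in control and was not called. All 6 fibroblast and all 5 endothelial markers were under 1 FPKM in each library (summed levels of 0.377 to 0.504 and 0.142 to 0.252 FPKM in the libraries labelled knockdown, 0.640 to 0.723 and 0.166 to 0.245 FPKM in control). So were 5 of 6 leukocyte markers, with CD14 as the exception (summed levels of 1.21 to 1.26 FPKM in the libraries labelled knockdown and 2.01 to 2.18 FPKM in control). COL1A2, DCN, PTPRC, CD3E, CDH5 and KDR were at 0 throughout. The part that the lower summed leukocyte and fibroblast levels had in the results was not tested. In bulk RNA a smaller share of cells that express a gene and less RNA of it per cell cannot be told apart.

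Ligands of the TGF-beta superfamily bind pairs of serine/threonine kinase receptors, which phosphorylate SMAD transcription factors. BMPs act mainly through SMAD1, SMAD5 and SMAD9, and TGF-beta and activins through SMAD2 and SMAD3, with SMAD4 as the shared partner. The pathway raises its own brakes: SMAD6 and SMAD7 block receptor signalling, and BAMBI is a membrane protein shaped like a receptor without a kinase domain that can be induced by the same ligands and, in colorectal cancer cells, by beta-catenin. ID1, ID2 and ID3 are among the best known direct targets of BMP signalling and encode helix-loop-helix proteins that sequester E proteins such as TCF3. In the colon, BMP signalling is strongest towards the top of the crypt and goes with differentiation.

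The promoter windows of BAMBI, ID1 and ID3, the 3 genes of the set with the largest log2 fold changes in either direction (ID1's was not called), are shown first, since BAMBI's fold change had the opposite sign to those of these ID genes. Each is the 250 bases before the RefSeq start (GRCh38.p14), written 5′ to 3′ on the gene's own strand, with capitals marking matches to 4 motifs searched on both strands. The motifs were GGCGCC, a GC-rich element of the kind that BMP SMADs bind, CAGACA, which holds the SMAD box, the E-box CACGTG, and the TATA-box core TATAAA. The windows are chr10:28677271-28677520 (plus strand) for BAMBI, chr20:31605039-31605288 (plus strand) for ID1 and chr1:23559502-23559751 (minus strand) for ID3.
BAMBI: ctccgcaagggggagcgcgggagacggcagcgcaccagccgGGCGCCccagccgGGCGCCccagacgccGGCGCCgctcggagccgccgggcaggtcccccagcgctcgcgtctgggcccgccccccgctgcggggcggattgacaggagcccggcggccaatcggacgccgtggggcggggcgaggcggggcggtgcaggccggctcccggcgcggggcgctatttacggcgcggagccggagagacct
ID1: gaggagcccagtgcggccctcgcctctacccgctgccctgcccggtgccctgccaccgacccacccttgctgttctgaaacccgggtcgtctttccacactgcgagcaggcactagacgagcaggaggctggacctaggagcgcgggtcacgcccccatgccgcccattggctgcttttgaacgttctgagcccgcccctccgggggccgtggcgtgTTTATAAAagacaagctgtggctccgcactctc
ID3: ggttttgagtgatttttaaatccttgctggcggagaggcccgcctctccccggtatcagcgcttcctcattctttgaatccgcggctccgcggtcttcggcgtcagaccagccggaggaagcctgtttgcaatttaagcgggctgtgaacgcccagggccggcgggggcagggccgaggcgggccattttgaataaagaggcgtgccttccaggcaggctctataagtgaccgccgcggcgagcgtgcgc

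The BAMBI window held GGCGCC at 3 places, with first bases at -209, -196 and -181 from the start, and none of the other motifs. GGCGCC was found in 16.4% of 35116 promoter windows of the same length, and 3 or more copies in 0.527% of them. The cut of 3 was BAMBI's own count, and the windows were not matched for GC content. The ID1 window held TATAAA on one strand from -33 and on the other from -31, overlapping matches to a motif present in 10.7% of all windows. ID3 had no match to the 4 motifs in its window, which says only that these letters are not in these 250 bases. CAGACA and CACGTG, which occurred in 13.6% and 6.34% of all windows, were in none of the 3. GC content was 81.2% for BAMBI, 66.0% for ID1 and 62.0% for ID3, against a median of 58.0% over all windows, and 2.32% of all windows had at least BAMBI's GC content. GENCODE 29 also places the start of BAMBI 179 bases and that of ID3 293 bases further upstream, so these windows are those of the RefSeq starts only.

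**Figure D1:**
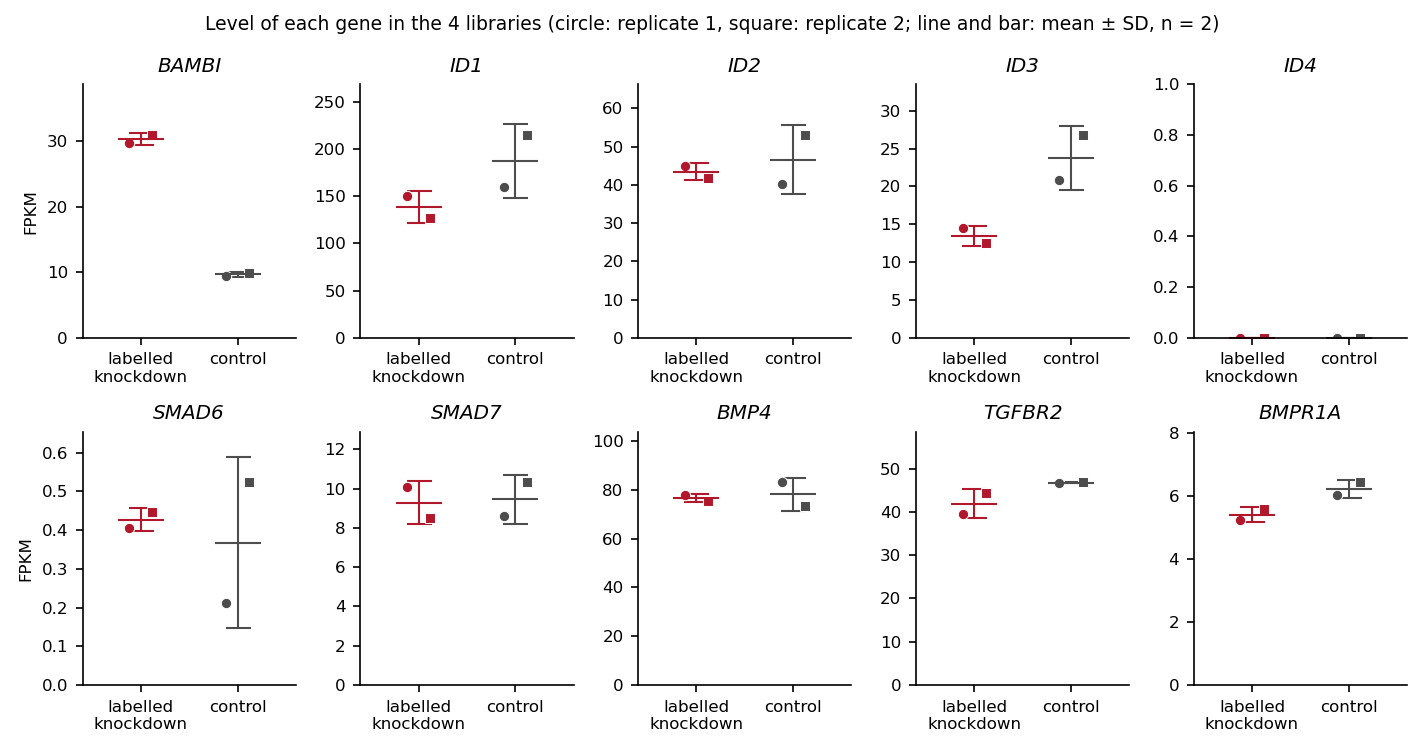
FPKM of each of the 10 genes (vertical axis, from 0) in the libraries labelled knockdown (red, left) and control (grey, right), with the mean and SD of 2 libraries. BAMBI separates with 30.3 against 9.68 FPKM, ID3 and ID1 lie lower in the libraries labelled knockdown with a wide gap between the controls, and ID4 is at 0.

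BAMBI was the gene of this set that changed most. BAMBI (ENSG00000095739, GRCh38 chromosome 10, 28677342 to 28682939, plus strand) had 29.7 and 31.0 FPKM in the libraries labelled knockdown, against 9.44 and 9.92 FPKM in control. The groups lay far apart and the 2 libraries within each group were close to each other. The values rest on 1186 and 1215 reads in the libraries labelled knockdown and 384 and 451 reads in control. The means were 30.3 ± 0.897 FPKM in the libraries labelled knockdown and 9.68 ± 0.339 FPKM in control (SD, n = 2 each), a ratio of 3.13. On the scale of log2(FPKM + 1), which is used for all fold changes here and understates those of low genes, the change was 1.55 (SE 0.05), the 26th highest of the 12777 tested genes. Tested means a mean of at least 1 FPKM over the 4 libraries, and a call means an adjusted p under 0.05 in the limma fit over all tested genes (Benjamini-Hochberg, two-sided). BAMBI was called higher in that fit and in each of 12 alternatives, with changes from 1.52 to 1.65.

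The ID genes split, with ID3 lower, ID1 lower in level but not called, ID2 overlapping and ID4 silent. ID3 (ENSG00000117318, chromosome 1, 23557918 to 23559794, minus strand) had 14.4 and 12.5 FPKM in the libraries labelled knockdown, against 20.8 and 26.8 FPKM in control. Both libraries labelled knockdown were below both controls, and the controls differed from each other by more than the libraries labelled knockdown did. The means were 13.5 ± 1.35 FPKM in the libraries labelled knockdown and 23.8 ± 4.22 FPKM in control (SD, n = 2 each), a log2 fold change of -0.77 (SE 0.13), which was called. That call was lost without knockdown replicate 2 (log2 fold change -0.67) and with no filter on low values.

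ID1 was the most abundant of the 10 genes. ID1 (ENSG00000125968, chromosome 20, 31605283 to 31606515, plus strand) had 151 and 127 FPKM in the libraries labelled knockdown, against 159 and 214 FPKM in control. The groups did not overlap, but control replicate 1 lay close to knockdown replicate 1, and the controls were further apart than those 2 libraries. Means of 139 ± 17.0 FPKM in the libraries labelled knockdown and 187 ± 39.0 FPKM in control (SD, n = 2 each) gave a log2 fold change of -0.42 (SE 0.16), which was not called. It was called lower without control replicate 1 (log2 fold change -0.63), with genes of at least 5 FPKM only and with limma-voom under both library sizes. The change was smaller and not called without control replicate 2 (log2 fold change -0.21) and without knockdown replicate 2 (log2 fold change -0.29).

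ID2 had 45.0 and 41.9 FPKM in the libraries labelled knockdown, against 40.2 and 53.0 FPKM in control. Both libraries labelled knockdown fell between the 2 controls, and the log2 fold change of -0.086 (SE 0.13) was smaller than its error. Without control replicate 2 it turned to 0.11. An antisense gene, ID2-AS1, overlaps the ID2 locus with 12 to 21 reads a library, against 1557 to 2297 reads for ID2. ID4 had 0 reads in all 4 libraries, where 3 reads would amount to 0.0651 to 0.0755 FPKM.

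The inhibitory SMAD genes showed no called change. SMAD7, whose protein blocks TGF-beta and BMP receptors, had 10.1 and 8.51 FPKM in the libraries labelled knockdown, against 8.59 and 10.3 FPKM in control. The groups overlapped and the log2 fold change was -0.022 (SE 0.11). It turned to 0.098 without control replicate 2 and to 0.088 without knockdown replicate 2. SMAD6, whose protein acts mainly on BMP receptors, had 0.406 and 0.448 FPKM in the libraries labelled knockdown, against 0.213 and 0.523 FPKM in control, from 60 and 65 reads against 32 and 88 reads. It lay under the filter, and both libraries labelled knockdown fell between the controls. With no filter its log2 fold change was 0.07 (SE 0.14).

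Upstream of these targets, the ligand and receptor genes of the set showed no called change. BMP4, a BMP ligand, had 78.0 and 75.6 FPKM in the libraries labelled knockdown, against 83.1 and 73.5 FPKM in control, with both between the controls and a log2 fold change of -0.025 (SE 0.063). TGFBR2, the receptor that binds TGF-beta directly, had 39.5 and 44.3 FPKM in the libraries labelled knockdown, against 46.7 and 46.8 FPKM in control. BMPR1A, a BMP receptor kinase, had 5.24 and 5.58 FPKM in the libraries labelled knockdown, against 6.02 and 6.43 FPKM in control. Both receptor genes were lower in each library labelled knockdown than in either control, with small log2 fold changes of -0.16 (SE 0.06) for TGFBR2 and -0.17 (SE 0.06) for BMPR1A that were not called. Limma-voom called both lower under both library sizes, and TGFBR2 was also called without knockdown replicate 2 (log2 fold change -0.24), but its change was -0.076 and not called without knockdown replicate 1.

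In level per exon length, averaged over the 4 libraries, the order was ID1 (163 FPKM), BMP4 (77.5), ID2 (45.0), TGFBR2 (44.3), BAMBI (20.0), ID3 (18.6), SMAD7 (9.37), BMPR1A (5.82), SMAD6 (0.397) and ID4 (0). ID2 and TGFBR2 did not differ beyond the spread of their libraries in either group. BAMBI and ID3 exchanged places, since BAMBI stood above ID3 in both libraries labelled knockdown and below it in both controls.

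Of the 8 genes of the set that passed the filter, 1 was called higher and 1 lower, where 29.9% of all tested genes were called, 16.8% as higher and 13.0% as lower. The balance of those shares turns with the scaling, to 1881 higher and 2034 lower with non-mitochondrial scaling and 2502 higher and 2709 lower with limma-voom on total reads. The groups did not overlap for 5 of the 8 (BAMBI, ID1, ID3, TGFBR2 and BMPR1A), where they did not for 69.7% of all tested genes. The median log2 fold change of the 8 was -0.12, against 0.0011 over all tested genes. Since the genes were picked on this contrast, nothing is read from these shares.

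Set against the ID and inhibitory SMAD genes within a library, BAMBI was relatively higher in the libraries labelled knockdown, and most of the shift was BAMBI's own change of 1.55. BAMBI's log2 level minus the mean log2 level of ID1 to ID4 was 0.76 and 0.95 in the libraries labelled knockdown, against -0.90 and -1.13 in control. The groups differed by 1.87 on the log2 scale, while the SD over 2 libraries was 0.14 in those labelled knockdown and 0.16 in control. The silent ID4 lowers that ID mean, so the change of sign depends on counting it. Without ID4 the difference was -0.63 and -0.39 in the libraries labelled knockdown and -2.33 and -2.65 in control. BAMBI thus stayed below the mean of ID1 to ID3 in each library. Against ID3 alone the difference was 0.99 and 1.24 in the libraries labelled knockdown and -1.06 and -1.35 in control. Against ID1 alone it was -2.30 and -1.997 in the libraries labelled knockdown and -3.94 and -4.30 in control, so BAMBI stayed below ID1 throughout. Against the mean of SMAD6 and SMAD7 it was 2.96 and 3.11 in the libraries labelled knockdown and 1.61 and 1.39 in control, a shift of 1.53 that is close to BAMBI's own change.

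**Figure D2:**
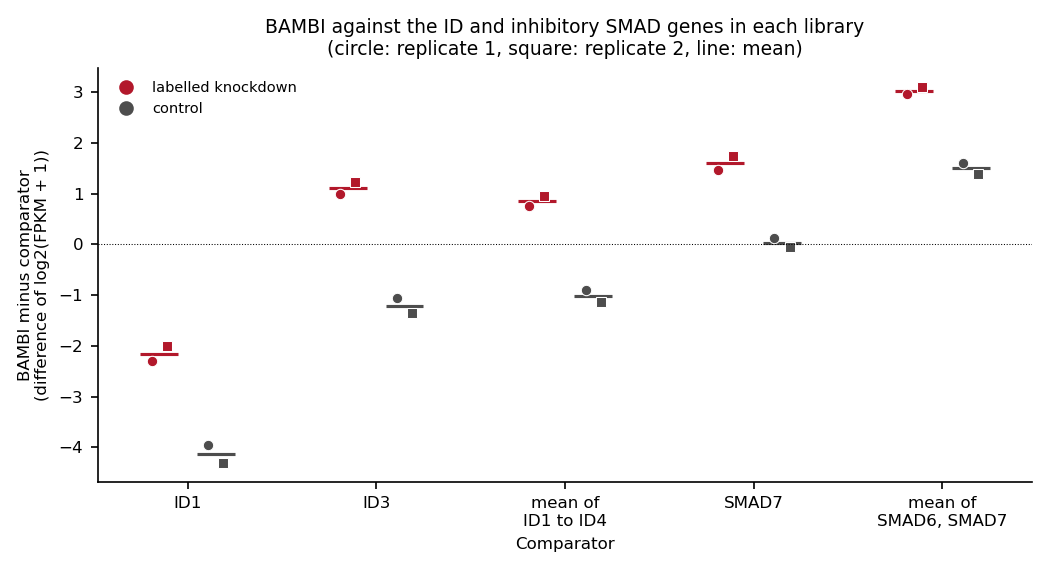
BAMBI's log2(FPKM + 1) minus that of ID1, ID3, the mean of ID1 to ID4, SMAD7 and the mean of SMAD6 and SMAD7 (horizontal axis), 1 point per library, with the libraries labelled knockdown in red to the left of control in grey and a line at each mean. For each comparator the libraries labelled knockdown lie above control, by 1.97 for ID1, 2.32 for ID3, 1.87 for the ID mean, 1.58 for SMAD7 and 1.53 for the inhibitory SMAD mean. The ID mean counts the silent ID4, which lowers it.

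The genes around BAMBI, ID1 and ID3 had median changes near 0. Within 2 Mb of BAMBI's start, 14 other genes were tested, 4 called higher and 2 lower (29.9% of all tested genes were called), with a median log2 fold change of 0.075 and a highest of 0.51. For ID3 the 40 neighbours, 10 called higher and 5 lower, had a median of 0.074 and a lowest value of -0.36. The 21 neighbours of ID1, 1 called higher and 2 lower, had a median of -0.043 and a lowest value of -0.45, which was below ID1's own -0.42. Medians around the other 7 genes ran from -0.039 to 0.079.

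**Figure D3:**
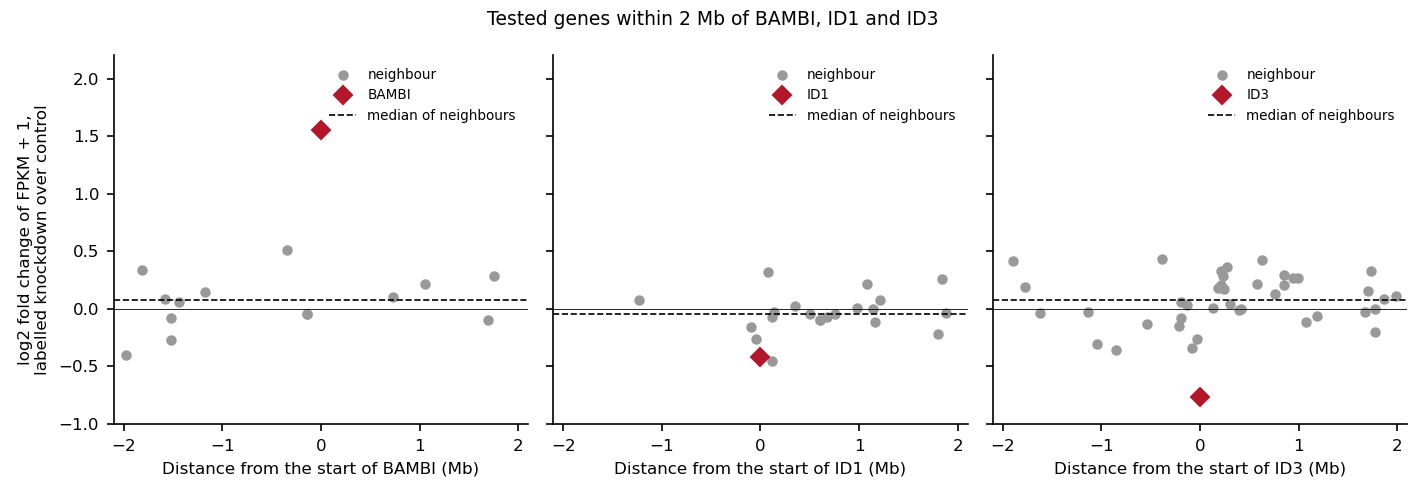
Log2 fold change of FPKM + 1, labelled knockdown over control (vertical axis), of the tested genes within 2 Mb of BAMBI, ID1 and ID3 by distance from each gene's start (horizontal axis, Mb), with the gene itself as a red diamond and the neighbours' median as a dashed line. BAMBI at 1.55 and ID3 at -0.77 lie outside the range of their neighbours, and ID1 at -0.42 lies inside.

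The genes with the pattern most like BAMBI's, by Euclidean distance between log2(FPKM + 1) values centred over the 4 libraries, were MAOB, CAV1 and AHNAK2, among 7875 genes with a mean of at least 5 FPKM. MAOB, which encodes monoamine oxidase B, had 31.8 and 32.6 FPKM in the libraries labelled knockdown, against 10.1 and 11.4 FPKM in control (distance 0.083). CAV1, which encodes caveolin, a coat protein of caveolae, had 9.34 and 9.38 FPKM in the libraries labelled knockdown, against 2.49 and 2.87 FPKM in control (distance 0.090). All 7 tested neighbours of CAV1 within 2 Mb had a joint median log2 fold change of 0.41. Of these neighbours, 6 were called higher, where 16.8% of all tested genes were. AHNAK2, a large scaffold protein gene, had 26.5 and 25.1 FPKM in the libraries labelled knockdown, against 8.16 and 8.40 FPKM in control (distance 0.099). Their log2 fold changes lay between 1.49 (CAV1) and 1.53 (AHNAK2), next to 1.55 for BAMBI.

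The spread within each group was uneven over the set, and the ratios and added genes given here were chosen after the values were seen, so no test is attached. After scaling to the authors' library sizes, knockdown replicate 1 had 1.19 times the ID1 reads of knockdown replicate 2 (95% exact counting interval 1.13 to 1.253), 1.07 times for ID2 (1.00 to 1.15), 1.15 times for ID3 (1.00 to 1.32) and 1.18 times for SMAD7 (1.07 to 1.31). The 95th percentile of this ratio over the tested genes was 1.26, above all 4, and 7.27%, 19.8%, 9.18% and 7.44% of genes had a ratio at or above those of ID1, ID2, ID3 and SMAD7. Control replicate 2 had 1.35 times the ID1 reads of control replicate 1 (1.29 to 1.41), 1.32 times for ID2 (1.24 to 1.41), 1.29 times for ID3 (1.16 to 1.42) and 1.20 times for SMAD7 (1.09 to 1.32). The 95th percentile between controls was 1.253, and 3.38%, 3.96%, 4.50% and 6.61% of genes had a ratio at or above those of ID1, ID2, ID3 and SMAD7. In each group the ratio is given in the direction that puts these 4 genes above 1. Over the tested genes the median fold in either direction was 1.06 in each group. The tested genes include some with fewer reads than these 4 and so more counting error.

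SMAD6, at a low level, was further apart between the controls. It had 60 and 65 reads in knockdown replicates 1 and 2 (ratio 0.907, 0.628 to 1.31), and 88 and 32 reads in control replicates 2 and 1 (ratio 2.46, 1.62 to 3.81). The BMP transducer SMAD9 had a ratio of 3.23 between the controls (1.72 to 6.52, from 47 and 13 reads), and the transcription factor ATOH8, a BMP target, one of 2.58 (1.46 to 4.78, from 49 and 17 reads). BMP4 went the other way between the controls (ratio 0.884, 0.848 to 0.922), and MSX1 and BAMBI differed within counting error there, with a ratio for BAMBI of 1.05 (0.915 to 1.21). MSX2 had a ratio of 1.18 between the controls (1.05 to 1.32). For knockdown replicate 1 over 2, the ratio was 0.886 for MSX2 (0.786 to 0.998) and 1.20 for MSX1 (1.01 to 1.43). HEY1 and DLX3, listed with the other BMP targets, had at most 12 reads a library, with ratios between the controls of 0.895 (0.334 to 2.40) and 0.383 (0.064 to 1.68). The intervals cover counting error only, and the cause of these differences was not tested.

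**Figure D4:**
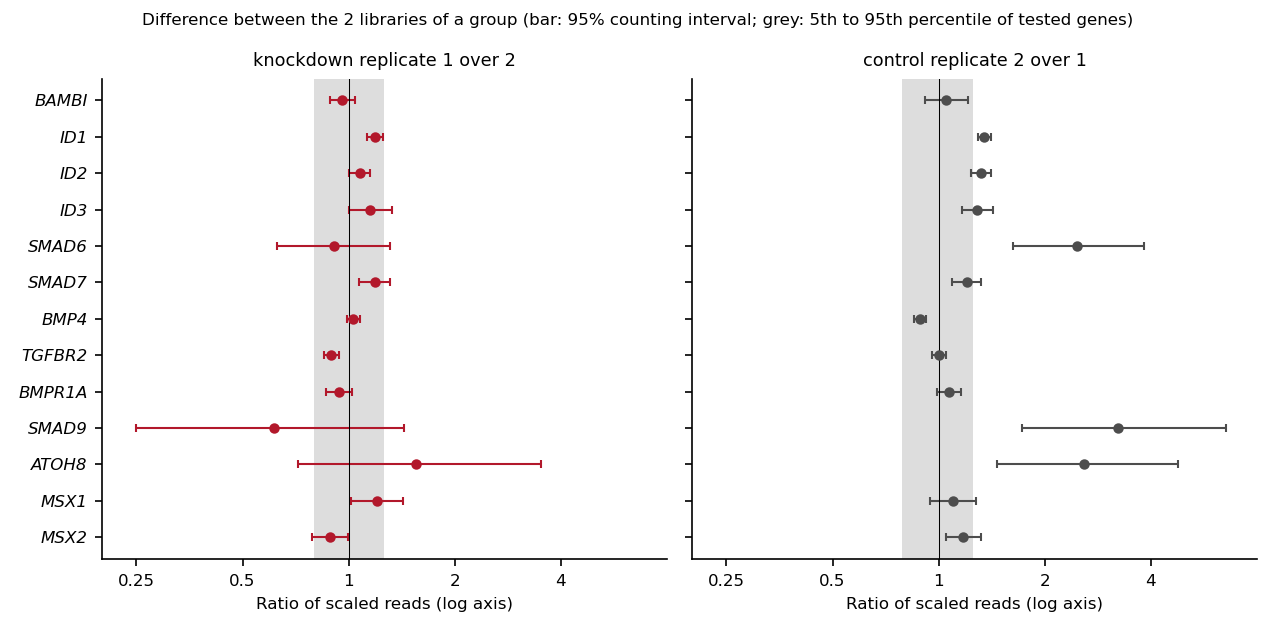
Ratio of scaled reads between the 2 libraries of a group (horizontal log axis) for knockdown replicate 1 over 2 (left, red) and control replicate 2 over 1 (right, grey), with 95% counting intervals, and the 5th to 95th percentile of tested genes as a grey band. Between controls ID1 at 1.35, ID2 at 1.32, ID3 at 1.29 and SMAD6 at 2.46 lie above the band, and BAMBI at 1.05 lies inside it. SMAD6, SMAD9 and ATOH8 lie under the filter, so they are not among the tested genes of the band and have more counting error.

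Beyond these 10 genes, 84 other genes of the pathway were listed by role, and 50 of them passed the filter. Of the 50, 11 rose and 5 fell, that is 32.0% called against 29.9% of all tested genes, with a median log2 fold change of 0.008 against 0.0011. The 5 include PMEPA1, which passed the filter only through its level in control. The 34 genes under the filter reached at most 0.852 FPKM in any library (TGFBI), and 8 were at 0 in all 4. The BMP antagonists NOG, CHRDL1 and BMPER were among those at 0.

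Among ligands, 0 of 6 tested genes rose and 1 fell, where 16.8% of all tested genes were called higher and 13.0% lower. INHBB, the beta B subunit of activin and inhibin, fell to 6.54 ± 0.830 FPKM in the libraries labelled knockdown, against 10.98 ± 0.240 FPKM in control (SD, n = 2 each; log2 fold change -0.67, SE 0.08, limma adjusted p = 0.00582). The 13 tested genes within 2 Mb of INHBB had a median of -0.20, and 1 of them rose and 5 fell. TGFB1 averaged 33.6 ± 0.472 FPKM in the libraries labelled knockdown and 35.4 ± 0.869 FPKM in control and did not pass (limma adjusted p = 0.202). BMP8B did not pass either, with 4.09 ± 0.0854 FPKM in the libraries labelled knockdown and 4.63 ± 0.0724 FPKM in control. Of 10 tested receptor and coreceptor genes, 0 rose and 1 fell. NEO1, or neogenin, which binds the BMP coreceptors of the RGM family, fell to 7.52 ± 0.405 FPKM in the libraries labelled knockdown, against 10.4 ± 0.308 FPKM in control (limma adjusted p = 0.00695). TGFBR1, the kinase partner of TGFBR2, had a log2 fold change of -0.088 (SE 0.060, limma adjusted p = 0.318).

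Of 6 tested genes for extracellular proteins that hold or trap ligands, 3 rose and 0 fell, where 16.8% of all tested genes were called higher and 13.0% lower. LTBP1 and LTBP4, which tether latent TGF-beta to the matrix, averaged 8.31 ± 0.228 and 12.5 ± 0.0580 FPKM in the libraries labelled knockdown, against 5.23 ± 0.196 and 8.49 ± 0.0673 FPKM in control. Their log2 fold changes were 0.58 (SE 0.05, limma adjusted p = 0.00280) and 0.51 (SE 0.04, limma adjusted p = 0.00212). NBL1, a secreted BMP antagonist of the DAN family, rose to 58.9 ± 1.88 FPKM in the libraries labelled knockdown, against 48.7 ± 0.694 FPKM in control (limma adjusted p = 0.00740). FSTL3, which binds activin, had 25.5 ± 0.692 FPKM in the libraries labelled knockdown and 25.7 ± 1.499 FPKM in control and did not pass.

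Among the SMAD transducers 1 of 5 tested genes rose and 0 fell. SMAD3, which carries TGF-beta and activin signals, rose to 14.0 ± 1.06 FPKM in the libraries labelled knockdown, against 9.08 ± 0.224 FPKM in control (log2 fold change 0.57, SE 0.06, limma adjusted p = 0.00407). SMAD5, a BMP transducer, had 12.1 ± 0.554 FPKM in the libraries labelled knockdown and 11.99 ± 0.251 FPKM in control, a difference within the spread. Of 14 intracellular regulators, 5 rose (35.7%) and 1 fell (7.14%), where 16.8% of all tested genes were called higher and 13.0% lower. FKBP1A, whose protein binds and restrains receptor kinases, rose to 87.6 ± 1.98 FPKM in the libraries labelled knockdown, against 57.9 ± 1.42 FPKM in control (log2 fold change 0.59, SE 0.04, limma adjusted p = 0.00131). SMURF1 and SMURF2, ubiquitin ligases for SMADs and receptors, had log2 fold changes of 0.63 (SE 0.06, limma adjusted p = 0.00327) and 0.29 (SE 0.06, limma adjusted p = 0.0207). The call of SMURF2 was lost whichever library was left out, and with no filter on low values. SMURF1 lies on chromosome 7 among 64 tested genes within 2 Mb with a median of 0.24, of which 28 rose and 1 fell. The other genes called here, named after their values were seen, were STRAP and RNF111, which rose, and PMEPA1, which fell. PMEPA1, a TGF-beta-induced inhibitor of the pathway, had 0.951 ± 0.172 FPKM in the libraries labelled knockdown and 1.76 ± 0.0983 FPKM in control (limma adjusted p = 0.0396). With a mean under 1 FPKM in the libraries labelled knockdown, PMEPA1 passed the filter only through control. Its reads were 104 and 79 in the libraries labelled knockdown and 167 and 202 in control, and its call in the alternatives is not given here. SKI, a corepressor of SMADs, did not pass (log2 fold change -0.019, SE 0.036).

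Target genes outside the set gave mixed directions. Of 5 tested TGF-beta targets, 2 rose, among them CDKN1A, the cell cycle inhibitor p21, and 1 fell, CCN2, which encodes a matricellular protein. Over all tested genes, 16.8% were called higher and 13.0% lower. CDKN1A averaged 462 ± 32.7 FPKM in the libraries labelled knockdown and 320 ± 9.63 FPKM in control (limma adjusted p = 0.00381), and it is also a target of p53. CCN2 fell to 10.1 ± 0.757 FPKM in the libraries labelled knockdown, against 14.8 ± 1.98 FPKM in control (limma adjusted p = 0.0203). CCN2's call was lost with no filter on low values, and without control replicate 2 or knockdown replicate 2 (log2 fold changes -0.38 and -0.44). JUNB did not pass (limma adjusted p = 0.113). Both other BMP targets that could be tested, MSX1 and MSX2, were not called, and MSX2 had 14.4 ± 1.24 FPKM in the libraries labelled knockdown and 14.1 ± 1.62 FPKM in control. Of the E proteins that ID proteins bind, TCF3 fell to 30.8 ± 0.0231 FPKM in the libraries labelled knockdown, against 36.4 ± 2.06 FPKM in control (limma adjusted p = 0.0226). That call was lost with no filter on low values, and without control replicate 1 or either library labelled knockdown. TCF12 had a log2 fold change of -0.16 (SE 0.05) and was not called.

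**Figure D5:**
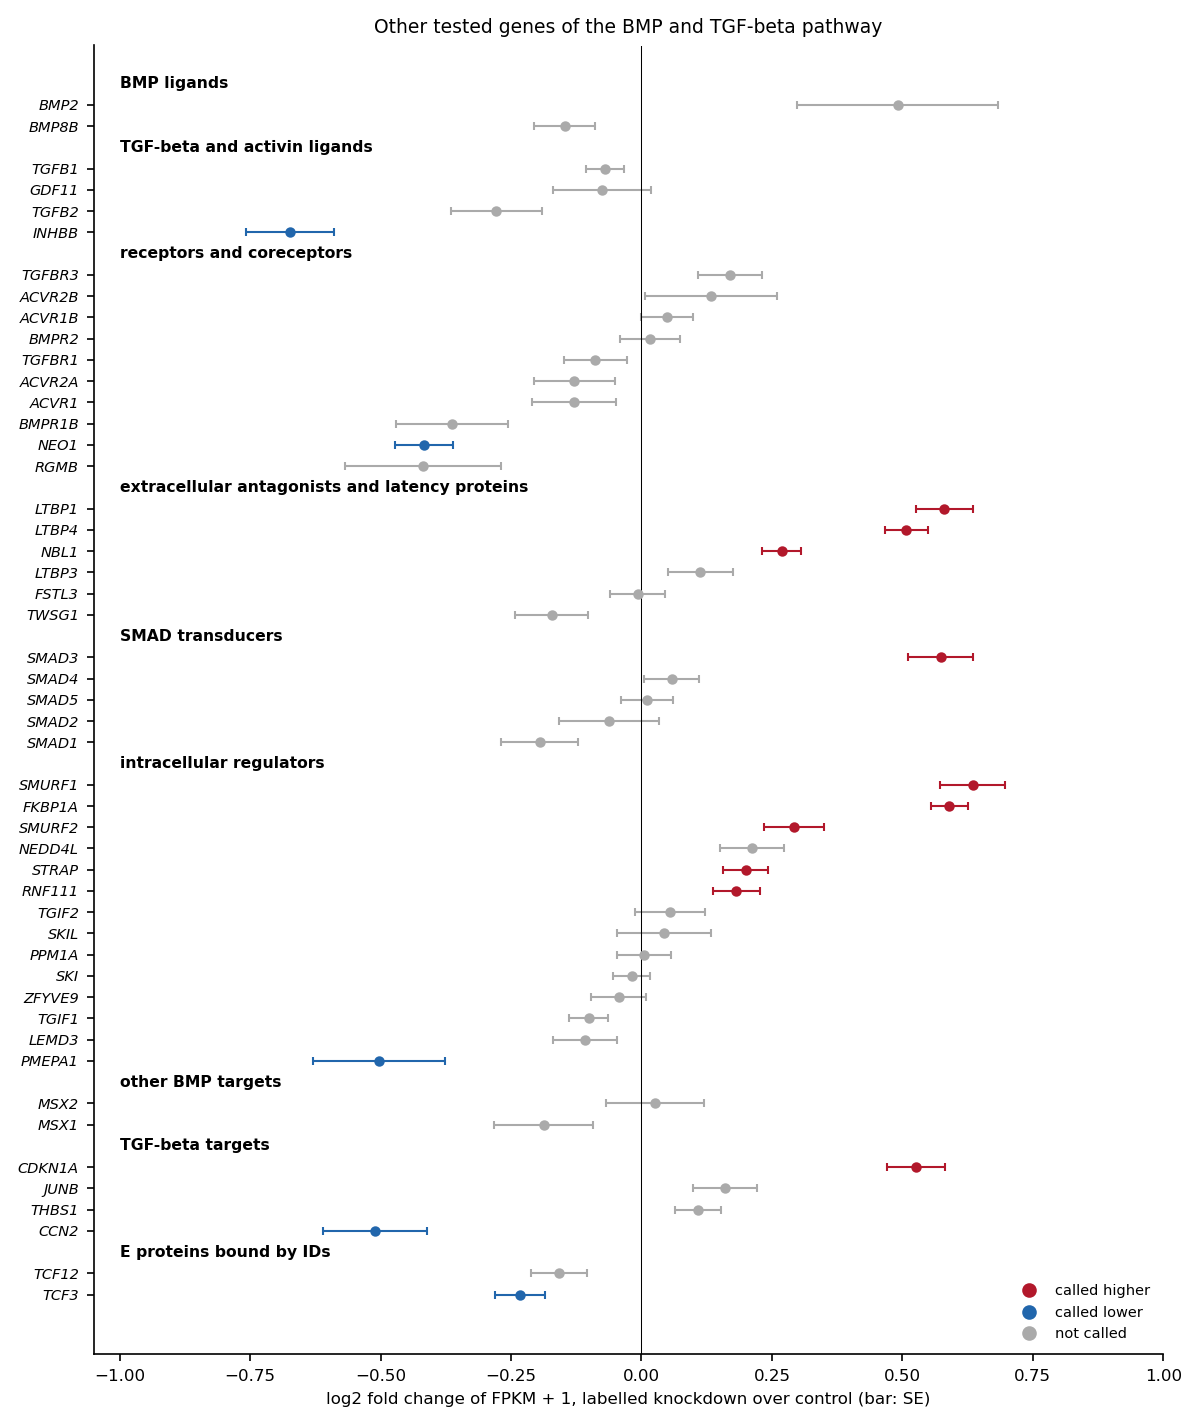
Log2 fold change of FPKM + 1, labelled knockdown over control, with its SE (horizontal axis), of tested pathway genes outside the set, grouped by role (vertical axis), in red where called higher, blue where called lower and grey where not called. Those called higher lie among antagonists and latency proteins, SMADs, regulators and TGF-beta targets, and those called lower include INHBB at -0.67.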

How the data were processed

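RNA-seq of 4 HT8 libraries (2 labelled PPDPF knockdown, 2 control) was used. The authors deposited FPKM per gene, 1 table per library, per the file headers. Alignment with HISAT2 2.0.5 and the build hg18 are listed, per the submitters' processing notes, while all 58735 gene IDs matched GENCODE 29, whose GRCh38 coordinates are given here. The counting step and its use of strand are not stated in the sources used here. Reads of genes that overlap, such as ID2 and ID2-AS1, therefore cannot be separated. FPKM times the union exon length gave whole reads for 100% of values above 0, within 0.01 of a read, with totals of 17330674 and 17069628 (labelled knockdown) and 17348315 and 19479906 (control).

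Genes with a mean of at least 1 FPKM (12777) were fitted by limma-trend in limma 3.58.1 under R 4.3.3, using log2(FPKM + 1), the 2 groups as the only term, leaving 2 residual degrees of freedom, and adjusted by Benjamini-Hochberg. The 10 genes, the pathway and marker lists and the rule for named genes (all 10, per role up to 3 called genes of smallest p and the most abundant tested gene not called, and 3 genes most like BAMBI) were chosen with earlier results of these data known. Some genes that the lists or the rule took are not reported here. CCN2 was matched through its older name. All 10 genes matched the RefSeq promoter table (GRCh38.p14). Alternatives were another pseudocount, other filters, quantile and non-mitochondrial scaling, a replicate block, limma-voom on the recovered reads and each library left out. Tables and figures used Python 3.11.15, pandas 2.3.3, numpy 2.4.6, scipy 1.17.1 and matplotlib 3.10.9.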

Additional observations from a re-analysis of the deposited data

How the results depend on the processing

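With 2 libraries a group, small changes cannot be told from the libraries' spread, and low genes such as SMAD6 rest on under 100 reads. BAMBI's rise and the calls of INHBB, NEO1, LTBP1, LTBP4, NBL1, SMAD3, SMURF1, FKBP1A and CDKN1A kept their direction and call in each alternative that could be run. Over 34 named genes and their alternatives, 359 of 407 values kept direction and call, 17 lost the call, 16 gained one and 15 changed sign.

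The count of the 10 genes called lower was 0 with no filter on low values, 2 with a mean FPKM of at least 5, 4 with limma-voom under either library size, and 1 to 2 with a library left out, against 1. For the other pathway genes, 7 rose and 2 fell with no filter, 11 and 12 fell with limma-voom (authors' divisor, total reads), and 7 to 9 rose and 2 to 3 fell with a library left out, against 11 and 5. Over all genes, 1134 rose and 734 fell with no filter, 1141 to 1345 rose and 775 to 919 fell with a library left out, 2502 rose and 2709 fell with limma-voom on total reads, and 1881 rose and 2034 fell with non-mitochondrial scaling, against 2152 and 1662. The library size as total reads was chosen after seeing the data. No filter tests more genes and also fits the limma trend with low genes included, and fewer libraries leave fewer degrees of freedom. The part of each in these differences, and the cause of the others, was not tested.

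Sign changes concerned genes that were not called. With each library left out in turn, log2 fold changes ranged from -0.28 to 0.11 for ID2, -0.14 to 0.098 for SMAD7, -0.11 to 0.063 for BMP4, -0.065 to 0.050 for FSTL3, -0.033 to 0.053 for SMAD5 and -0.083 to 0.14 for MSX2. SMAD5 had -0.011 under quantile normalization, -0.019 with non-mitochondrial scaling and -0.014 with limma-voom on total reads, and MSX2 had -0.0038 with non-mitochondrial scaling and -0.0028 with limma-voom on total reads.

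BAMBI minus the ID mean ranged from 1.76 to 1.98 and BAMBI minus the inhibitory SMAD mean from 1.42 to 1.64 over the libraries left out, and the first was 1.98 without ID4, an alternative chosen after seeing the data. Quantile normalization gives no value for either, since ID4 and SMAD6 lie under the filter, and filters and limma-voom do not bear on them.

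Same-numbered libraries did not deviate together from their group means across genes (r = -0.0021 across 12777 genes). This r cannot tell whether same-numbered libraries were prepared together, since such libraries need not share a deviation. With the replicate number as a block, 10 pathway genes rose and 5 fell, and 1899 and 1405 of all genes did so. In this balanced layout the block leaves each fold change as it was and bears only on its error.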
